A study of Homo sapiens with 6 samples.

Results

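The regions described here are places at the ends of protein-coding genes where both HDAC1 libraries of human HepG2 cells had a peak and no ENO1 or H4K12la library had one. Peaks of all 6 libraries that overlapped by at least 1 bp were merged on the 22 numbered chromosomes, X and Y. A merged region was kept when it overlapped 1 kb around either annotated end of a gene in RefSeq GRCh38. The regions were thus chosen by their peak calls in all 6 lists and by gene position, and fold, width and other gene features were not criteria. Fold and width are still tied to the rule, since a call needs enrichment and a wider peak overlaps other peaks more easily. Of 13626 merged regions, 473 met the rule. They took in the ends of 611 of 19866 protein-coding genes, or 3.08% of all such genes.

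The libraries were made by CUT&Tag, in which an antibody draws a transposase to its target in intact cells so that nearby DNA is cut and tagged, in HepG2, a line labelled as hepatocellular carcinoma from liver. The 3 antibodies were used in 2 libraries each: against HDAC1, a histone deacetylase; against H4K12la, histone H4 carrying a lactyl group on lysine 12; and against ENO1, the glycolytic enzyme alpha-enolase. The labels name no treatment, genotype or untreated control, and the groups are told apart by their antibody. The series set out to relate histone lactylation linked to ENO1 and HDAC1 to transcription, and the gene ends set apart here are those where HDAC1 was called and neither of the other targets was.

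HDAC1 is a class I deacetylase that works as the catalytic subunit of larger complexes, among them NuRD, SIN3 and CoREST. It has no DNA binding of its own that picks genes, and is brought to promoters and enhancers by transcription factors and by histone readers in those complexes. It removes acetyl groups from histone tails, and removal of lactyl groups has been described for the class I enzymes, which is the background against which HDAC1 and a lactyl mark were profiled in the same cells.

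Short stretches of DNA under these regions show what they look like. The 6 shown are the bases just upstream of the gene start at the strongest regions that cover all 120 of them, among genes whose start in the promoter table is the annotated gene end, read 5′ to 3′ on the gene's strand from RefSeq GRCh38 patch 14. Capitals mark matches to CCAAT or GGGCGG, the core words of the CCAAT box and of the SP/KLF box, on either strand, so that ATTGG and CCGCCC are the same words read from the other strand.
FAM168A, chr11:73598113-73598232, minus strand: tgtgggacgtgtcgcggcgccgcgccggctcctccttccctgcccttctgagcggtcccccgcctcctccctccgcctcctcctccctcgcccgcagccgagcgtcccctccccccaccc
FLYWCH2, chr16:2883075-2883194, plus strand: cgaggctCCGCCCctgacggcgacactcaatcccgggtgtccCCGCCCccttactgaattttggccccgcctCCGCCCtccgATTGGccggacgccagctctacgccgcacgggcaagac
PELI1, chr2:64144421-64144540, minus strand: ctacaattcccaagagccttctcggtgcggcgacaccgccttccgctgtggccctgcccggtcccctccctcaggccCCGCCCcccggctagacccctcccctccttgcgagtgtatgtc
CCT3, chr1:156338293-156338412, minus strand: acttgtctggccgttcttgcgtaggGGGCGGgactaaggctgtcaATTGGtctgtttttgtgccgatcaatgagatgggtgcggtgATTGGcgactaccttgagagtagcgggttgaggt
DKC1, chrX:154762744-154762863, plus strand: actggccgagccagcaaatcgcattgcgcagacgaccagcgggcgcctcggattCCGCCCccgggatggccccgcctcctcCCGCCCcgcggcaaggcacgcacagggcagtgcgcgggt
MYL11, chr16:30370814-30370933, plus strand: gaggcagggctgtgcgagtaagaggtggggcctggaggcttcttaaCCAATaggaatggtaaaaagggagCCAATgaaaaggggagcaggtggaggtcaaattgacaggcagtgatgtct

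These promoters differ in make-up. The FAM168A stretch was 77.5% G or C with 14 CpG pairs and held neither word. The FLYWCH2 stretch held 4 matches and was 70.0% G or C, and the CCT3 stretch held 3 matches, both ATTGG words among them. MYL11, which codes for a myosin light chain of fast skeletal muscle, stood apart with 52.5% G or C, 1 CpG pair and a pair of CCAAT words. The MYL11 region also lies at the start of TBC1D10B on the other strand. The HDAC1 summits lay at -202 and -205 bp from the FAM168A start in replicates 1 and 2, at -78 and -69 bp from the PELI1 start, and at 51 and -8 bp from the DKC1 start. At CCT3 they lay farther upstream and farther apart, at -251 and -443 bp.

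Of 3093 merged regions with a peak of both HDAC1 libraries, 1280 lay at gene ends, and 473 of those had no peak of another target, a share of 37.0% (Wilson 95% interval 34.4% to 39.6%, which covers counting error alone, as do all intervals given here). Of the remaining gene-end regions, 467 had a peak of both H4K12la libraries and no ENO1 peak, 316 had a peak of 1 H4K12la library and no ENO1 peak, and 24 had an ENO1 peak. H4K12la was thus the target that set the count. ENO1 removed 5 regions that had no H4K12la peak. The 467 regions with both HDAC1 and H4K12la (shared regions), the 812 gene-end regions with both H4K12la libraries and no HDAC1 or ENO1 peak (H4K12la-only regions), and the 374 HDAC1-only regions away from gene ends serve for comparison.

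The count rests on the calls of single libraries. The deposited lists held 5727 and 4567 HDAC1 peaks on these chromosomes, 5459 and 7568 H4K12la peaks, and 1592 and 1189 ENO1 peaks. They end at a q value of 0.01. The 473 regions held 8.28% and 10.4% of the peaks of HDAC1 replicates 1 and 2. Without H4K12la replicate 2, the longer list, 736 regions and 938 genes met the rule, and without HDAC1 replicate 2, 955 regions and 1218 genes did. Of the 955 gene-end regions called in HDAC1 replicate 1 with no other target, 473 (49.5%) were also called in replicate 2, and of the 629 called in replicate 2, 473 (75.2%) were also called in replicate 1. With peak lists alone, sequencing depth is unknown, and a gene end with no H4K12la peak is one without a call at this depth, not one shown to lack the mark. Separate cultures for the replicates are not recorded in the labels, and differences within a target may be technical.

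Because the rule used these peak calls, counts, folds and gene features are given as descriptions without a test. Regions and genes of 1 cell line are not replicates, and with 2 libraries for each target an exact permutation over libraries cannot reach p = 0.05.

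HDAC1 fold enrichment at these regions was moderate. The fold is the authors' value, the signal at the summit over the peak caller's local background in that library, and it is compared here within a library. The 473 regions had a median of 4.68 in replicate 1 (quartiles 3.99 and 5.69, range 2.23 to 10.03) and of 4.52 in replicate 2 (quartiles 3.8 and 5.36, range 2.44 to 9.28). Shared regions had medians of 5.51 and 5.07, gene-end regions with H4K12la in 1 library 5.03 and 4.82, and HDAC1-only regions away from genes 4.59 and 4.45. The order of the 3 gene-end classes was thus the same in both replicates, with the HDAC1-only regions lowest, although their ranges overlapped almost fully. Gene ends called in a single HDAC1 library with no other target were lower still, with a median of 4.03 over 482 regions in replicate 1 and 4.13 over 156 regions in replicate 2. A rule that asks for a call in both libraries favours higher folds, so nothing is read from that last difference. Across the 473 regions, the folds of the 2 libraries ranked alike, with a Spearman rho of 0.704, which is a description of sites that share libraries and a calling threshold.

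**Figure D1:**
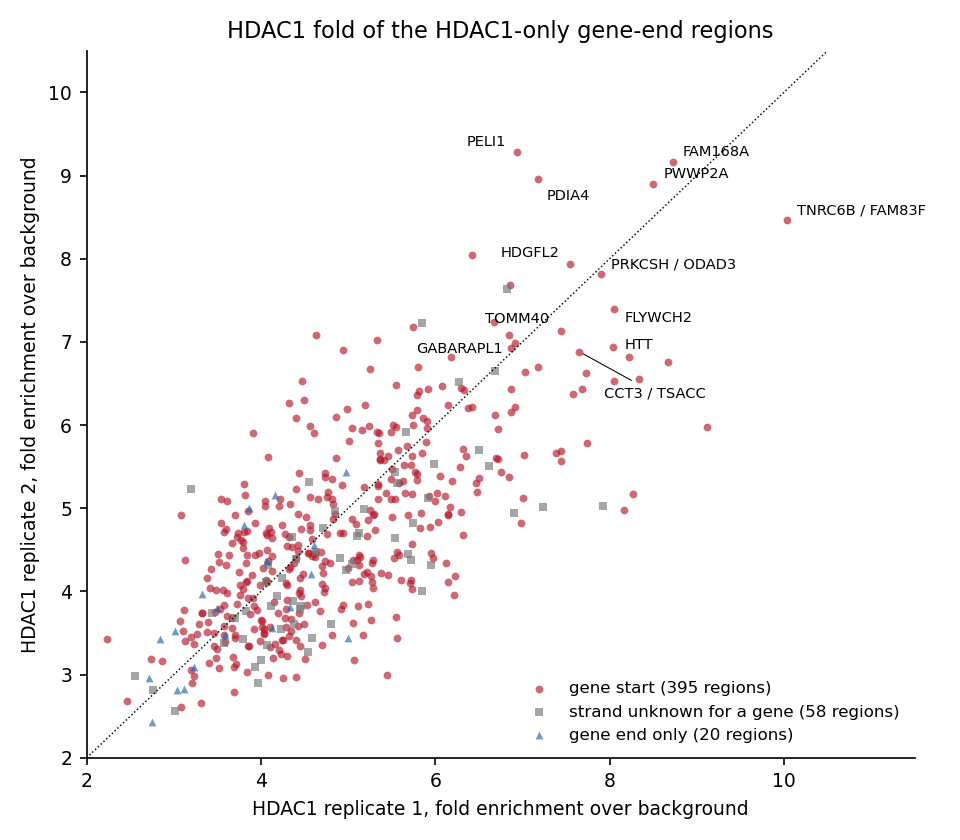
HDAC1 fold enrichment over background in replicate 1 (x axis) and replicate 2 (y axis) at each of the 473 HDAC1-only gene-end regions; circles are regions at a gene start (395), squares those with a gene of unknown strand (58), triangles those at the 3′ end alone (20), and the dotted line marks equal values. The 12 regions with the highest lower fold are named, and the triangles lie in the lower part of the cloud, between 2.72 and 5.0 in replicate 1.

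The strongest regions lay at genes of varied function. The FAM168A region had folds of 8.72 and 9.16 in replicates 1 and 2. The PWWP2A region, at the gene of a chromatin protein that reads nucleosomes with H2A.Z, had 8.5 and 8.89. The region between TNRC6B, a partner of Argonaute in microRNA silencing, and FAM83F had 10.03 and 8.46, the highest value in replicate 1.
Among the 12 regions, 4 lay at genes of protein folding and import. PRKCSH, a subunit of the glucosidase that trims glycoproteins in the endoplasmic reticulum, shared its region with ODAD3 at folds of 7.90 and 7.81. PDIA4, a disulfide isomerase of the same compartment, had 7.18 and 8.96. TOMM40, the pore of the outer mitochondrial import complex, had 7.45 and 7.13, and CCT3, a subunit of the cytosolic chaperonin, shared its region with TSACC at 7.65 and 6.88.
The remaining regions of the 12 lay at HDGFL2, a chromatin-binding PWWP protein (7.55 and 7.94), FLYWCH2 (8.05 and 7.39), the huntingtin gene HTT (8.03 and 6.94), PELI1, a ubiquitin ligase of Toll-like receptor signalling (6.93 and 9.28), and the autophagy gene GABARAPL1 (6.92 and 6.99). PRKCSH, HDGFL2 and TOMM40 are on chromosome 19. The PELI1 value was the highest of the 473 regions in replicate 2.

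The regions were narrow. HDAC1 peaks in them had a median width of 562 bp in replicate 1 and 443 bp in replicate 2, against 639 and 502 bp in shared regions and 480 and 417 bp in HDAC1-only regions away from genes. A rule that leaves out overlaps with H4K12la peaks favours narrower peaks, so nothing is read from the difference to shared regions. The merged regions spanned a median of 619 bp (quartiles 505 and 794 bp, range 310 to 1959 bp). The widest, 1959 bp, lay over the histone genes H2AC6 and H2BC4 with folds of 3.72 and 3.13, and the next lay at SEMA4G, which codes for a semaphorin (1806 bp, folds 3.20 and 3.05), and between WBP4 and ELF1, an ETS factor (1783 bp, folds 5.18 and 4.21). Mean peak width and height were unrelated in rank, with a Spearman rho of 0.01 between that width and the lower fold over 473 regions. For the merged width the rho with the lower fold was -0.11.

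Where strand was known, the regions were at gene starts. Of 415 regions that could be placed by strand, 395 (95.2%, interval 92.7% to 96.9%) overlapped 1 kb around a gene start, against 98.3% of shared and 98.5% of H4K12la-only regions. The other 58 of the 473 had a gene whose strand is not in the promoter table used. HDAC1 summits lay a median of -124 bp from the start in replicate 1 (quartiles -302 and 138 bp) and -125 bp in replicate 2 (quartiles -274 and 130 bp). In shared regions the medians were -2 and -53 bp. Summits fell upstream of the start in 60.0% and 63.8% of the HDAC1-only regions, against 50.1% and 56.3% of the shared ones. The upstream tilt was thus seen in both libraries, and the summits of the 2 libraries lay a median of 94 bp apart. The region reached the annotated gene end itself in 60.5% of HDAC1-only and 83.7% of shared regions, but shared regions are wider, being merged from 4 peaks with a median of 1012 bp.

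**Figure D2:**
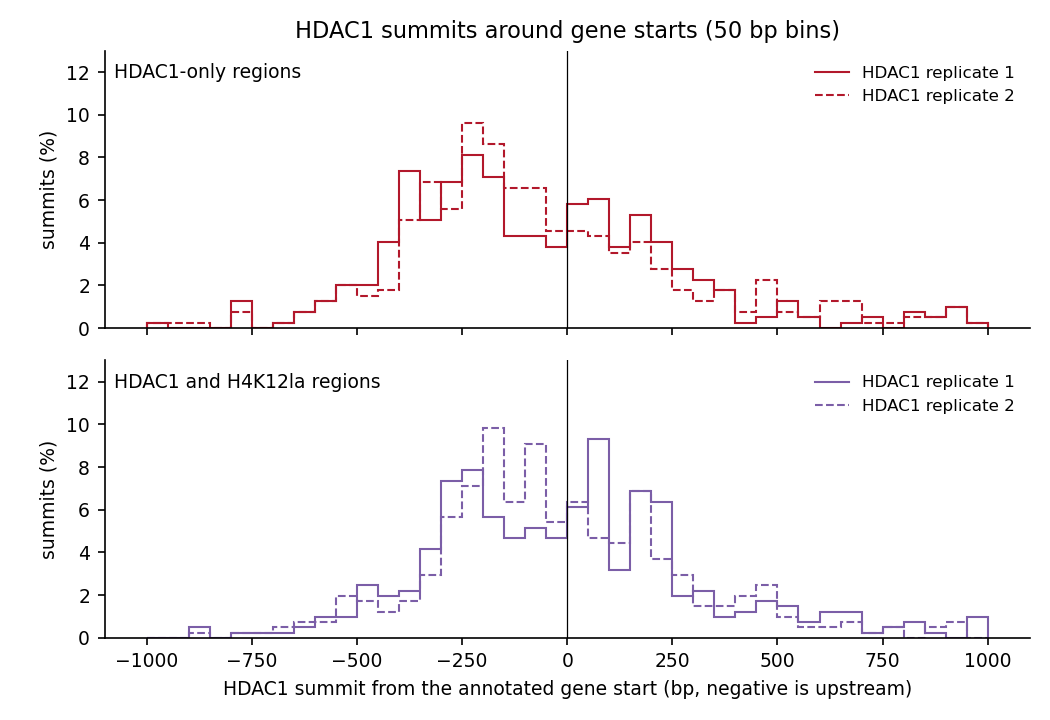
Position of the HDAC1 summit from the annotated gene start (x axis, bp, negative is upstream) as the percent of summits in each 50 bp bin (y axis), for 395 HDAC1-only regions (upper panel) and 407 shared regions (lower panel); solid lines are HDAC1 replicate 1 and dashed lines replicate 2. In the upper panel the medians are -124 and -125 bp, and in the lower panel -2 and -53 bp.

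The 20 regions at a 3′ end alone had lower folds than those at starts, with medians of 3.70 and 3.68 against 4.74 and 4.65. Of these, 12 lay wholly downstream of the gene, 4 crossed the annotated end and 4 lay inside the gene, and none was within 1 kb of any other start in the promoter table. The downstream ones included 3 genes of 1 family, ID1, ID2 and ID3, which code for helix-loop-helix proteins without a DNA-binding part that hold E-proteins off DNA and are known targets of BMP signalling. The ID1 region began 589 bp past the end of a gene 1.22 kb long and had folds of 2.75 and 2.44. The ID2 region began 307 bp past the end (folds 3.49 and 3.8) and the ID3 region 923 bp past it (folds 3.03 and 2.81). No library had a peak within 1 kb of the start of any of the 3 genes. All 3 lay in the lower part of the fold range in both replicates. Further regions downstream of a gene, named after their values were seen, lay at KRT8, a keratin of simple epithelia (3.23 and 3.09), and at CCL20, a chemokine (5.0 and 3.44). Being at a 3′ end alone describes the region, not the gene. GPR108, CCL20, DUSP28, TTC7A and AGFG2 also had a separate region with an HDAC1 peak at their start.

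HDAC1-only gene ends lay in gene-rich neighbourhoods. Member genes had a median of 22 other protein-coding genes within 500 kb (quartiles 11 and 34), against 10 for genes of shared regions, 8 for genes of H4K12la-only regions and 13 for all protein-coding genes. Genes at ends called in a single HDAC1 library with no other target had 18, and HDAC1 genes with H4K12la in 1 library had 12. A median above that of all genes was thus not particular to the 473 regions. When all genes were cut into 5 equal bins by number of neighbours, from fewest to most, 1.43%, 2.01%, 2.24%, 3.75% and 5.94% had an HDAC1-only gene-end region. The same bins gave 3.98%, 4.08%, 3.65%, 2.21% and 1.59% for shared regions, where the share over all genes was 3.1%. For H4K12la-only regions, found at 4.81% of all genes, they gave 7.45%, 7.37%, 4.88%, 2.74% and 1.59%. The HDAC1-only share thus went up with gene density at every step, while both classes with H4K12la were lowest in the densest bin.

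**Figure D3:**
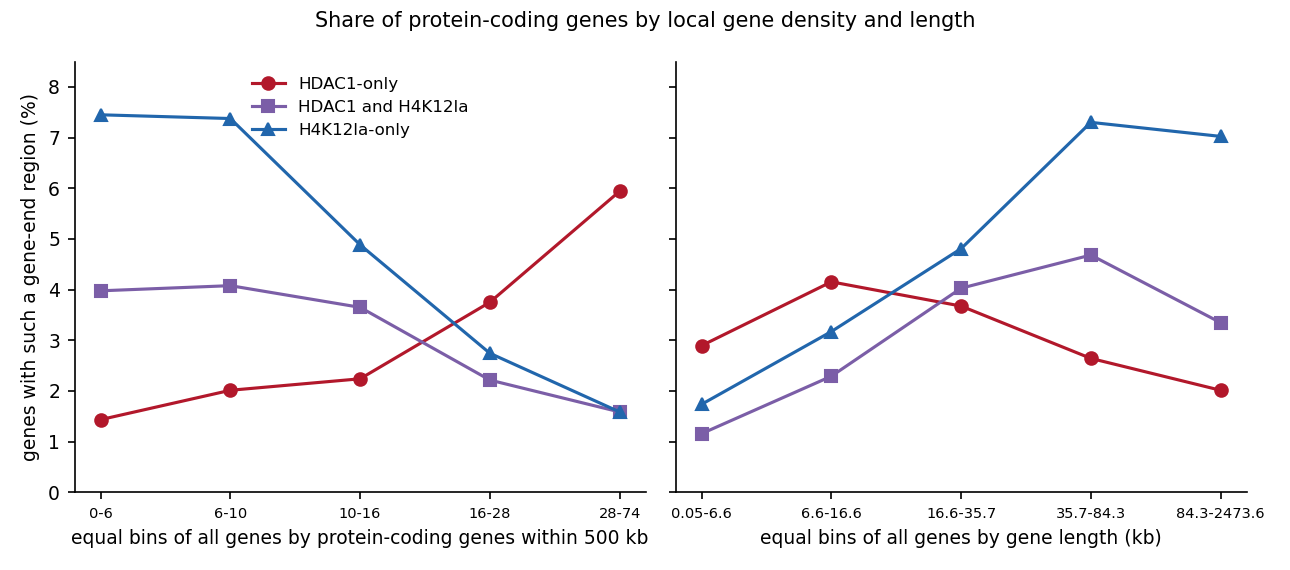
Percent of all protein-coding genes with an HDAC1-only (red circles), shared (purple squares) or H4K12la-only (blue triangles) gene-end region (y axis) in 5 equal bins of genes by number of protein-coding genes within 500 kb (left) and by gene length in kb (right), each axis from low to high with the range of each bin below it. The HDAC1-only share is highest in the densest bin at 5.94%, where the other classes are both at 1.59%.

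The genes were also shorter than those with H4K12la. The median length was 18.4 kb (quartiles 8.42 and 43.3 kb) for HDAC1-only genes, 37.3 kb for shared, 47.2 kb for H4K12la-only and 24.5 kb for all protein-coding genes. For HDAC1 genes with H4K12la in 1 library it was 30.0 kb, and for those with a single HDAC1 call and no other target 20.5 kb. Genes under 10 kb made up 28.8% of HDAC1-only genes, 12.3% of shared, 11.4% of H4K12la-only and 28.1% of all genes, so on this count the HDAC1-only genes were close to all genes and the classes with H4K12la held few short genes. Genes over 100 kb made up 10.97%, 17.4%, 25.4% and 16.9%. Length and density move together over all genes, with a Spearman rho of -0.40 over 19866 genes. Within the density bins, from fewest to most neighbours, the median lengths were 40.7, 40.1, 25.5, 22.1 and 12.5 kb for HDAC1-only genes. They were 55.6, 38.1, 37.4, 34.5 and 13.8 kb for shared genes, 56.6, 50.96, 47.4, 33.9 and 14.6 kb for H4K12la-only genes, and 53.9, 42.8, 29.6, 16.9 and 10.01 kb for all genes. HDAC1-only genes were thus shorter than H4K12la-only genes in each bin and shorter than shared genes in all but the second. They were shorter than all genes in the 3 sparser bins and longer in the 2 densest.

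The differences in density and length were also seen with any single HDAC1 library set against any single H4K12la library. In the 4 pairs, gene-end regions called for HDAC1 and not for H4K12la had genes with a median of 16 to 19 neighbours and 19.1 to 23.5 kb, and those called for both had 10 neighbours in each pair and 35.7 to 37.8 kb. These pairs draw on the same 4 libraries and are not separate evidence.

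The longest gene was CAMTA1, a calmodulin-binding transcription activator of 984 kb, with folds of 6.33 and 6.43, followed by SHANK2, a synaptic scaffold (5.10 and 4.67). The shortest were LOC128125816 (0.135 kb), which lies in the DIABLO region, and the histone gene H4C14 (0.396 kb). Among the 611 genes the lower of both folds ranked weakly with length, with a rho of 0.24, and weakly and inversely with the number of neighbours, with a rho of -0.19. Genes that share a region share its fold.

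Chromosome 19, the most gene-dense human chromosome, held the largest part. It carried 78 of the 473 regions (16.5%, interval 13.4% to 20.1%), against 6 of 467 shared regions (1.28%), 7 of 812 H4K12la-only regions (0.862%) and 46 of 374 HDAC1-only regions away from gene ends (12.3%). Of the 316 HDAC1 gene-end regions with H4K12la in 1 library, 14 (4.43%) lay on chromosome 19. Of its 1410 protein-coding genes, 104 (7.38%) had an HDAC1-only gene-end region, and the next chromosomes were 16 at 3.91% and 6 at 3.84%. The lowest were chromosome 10 at 1.09% and chromosome 21 at 1.26% besides chromosome Y, where none of 45 genes had one. The HDAC1 lists as a whole held 6.29% and 7.09% of their peaks on chromosome 19, the ENO1 lists 6.34% and 5.55%, and the H4K12la lists 2.29% and 2.23%. The low H4K12la share on this chromosome therefore stands beside the high HDAC1-only share, and how far the lists' overall spread over chromosomes accounts for it was not tested.

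**Figure D4:**
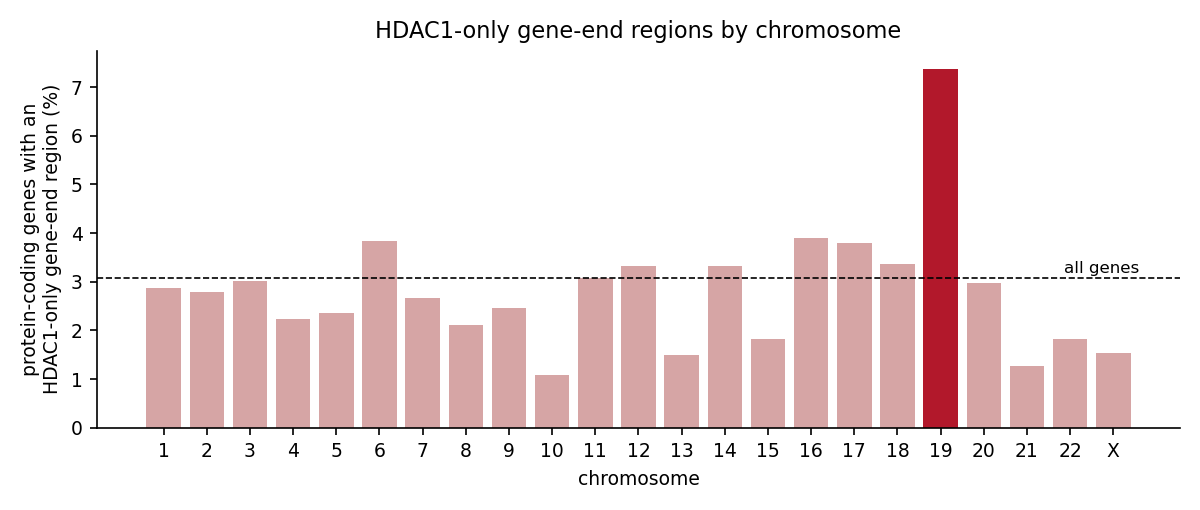
Percent of the protein-coding genes of each chromosome (x axis) with an HDAC1-only gene-end region (bars, y axis from 0); the dashed line is the 3.08% of all genes. Chromosome 19 (dark bar) is at 7.38%, and chromosome Y, with none, is not drawn.

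Among the chromosome 19 genes were members of the zinc-finger family, whose clusters fill parts of it, yet the family as a whole was near the background. Of 517 ZNF genes, 17 (3.29%) were HDAC1-only, 16 shared and 20 H4K12la-only, and the highest 4, ZNF808 (6.35 and 5.63), ZNF497 (5.55 and 5.98), ZNF761 (5.50 and 5.11) and ZNF556 (5.99 and 5.09), are all on chromosome 19. Ribosomal and splicing genes contributed too. Of the cytosolic ribosomal protein genes in the set, RPS19 (6.92 and 6.21) and RPS9 (4.50 and 3.61) are examples on chromosome 19.

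Gene groups were read from 28 lists and 40 symbol families, and 74 of the 611 genes were in a list. In 7 lists at least 10% of genes were HDAC1-only, beside 3.08% of all genes, and in 5 lists none was. Lists are small, so 1 region moves a share by several percent, and no set test was made. A gene counts by either end, so some listed genes, such as MTA2 and BAD, are in the set by a region at their 3′ end.

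Replication-dependent histone genes, which are short, intronless and lie in clusters, were in the set and in neither class with H4K12la. Of 62 genes, 11 (17.7%) had an HDAC1-only region, from 7 regions, while 0 had a shared or an H4K12la-only one. With a -log10 q of at least 5 in every list the count was 7. The region of the divergent pair H2AC11 and H2BC11 had folds of 6.72 and 5.59, while H4C3 had 4.38 and 3.61 and H4C14 had 4.29 and 3.78. Histone genes of the same type are similar in sequence. The sources used here do not say how the authors placed reads that match several genes. That also holds for FAM72B (6.18 and 6.81) and FAM72D (5.36 and 5.67).

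Genes of protein folding were present as well. Of 43 chaperone and unfolded protein response genes, 7 (16.3%) were HDAC1-only, 3 shared and 2 H4K12la-only, and 11 were HDAC1-only at the stricter q. That minimum also drops weaker H4K12la and ENO1 peaks, so genes can enter the set by it as well as leave. Besides PDIA4 and CCT3, HSPD1 and HSPE1, the mitochondrial chaperonin and its co-chaperonin, which are transcribed from 1 divergent promoter, shared a region with the readthrough gene HSPE1-MOB4 at folds of 7.73 and 6.63. This was 1 of 7 regions with 3 genes. Others were the region of ERAP1, LOC124901030 and LNPEP (6.12 and 4.34) and that of EEF1AKMT4, EEF1AKMT4-ECE2 and ALG3 (4.29 and 4.10). In all, 336 regions had 1 gene and 130 had 2, and 78 regions (16.5%) lay at starts of genes on both strands, against 21.6% of shared and 12.2% of H4K12la-only regions.

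Splicing genes contributed 9 of 63 (14.3%), against 5 shared and 3 H4K12la-only. HNRNPA2B1 (5.79 and 6.19) and HNRNPA1 (7.0 and 5.13) code for abundant RNA-binding proteins that act against splice-site use, and SNRPA (5.82 and 4.76) and SNRPD2 (5.22 and 4.23) for proteins of the spliceosome's small nuclear particles. Cytosolic ribosomal protein genes contributed 7 of 86 (8.14%), led by RPS19 with RPS12 (4.74 and 5.37) and RPS26 (5.71 and 4.10), against 2 shared and 4 H4K12la-only. Of 77 mitochondrial ribosomal protein genes, 1 was HDAC1-only (MRPL4, 4.99 and 6.19), 2 were shared and 18 H4K12la-only, beside 4.81% of all genes that were H4K12la-only. Most of the 77 were in none of these classes. The list of 60 DNA repair genes had 1 HDAC1-only (OGG1, 4.94 and 3.83), 4 shared and 8 H4K12la-only. Repair genes outside that list were also in the set, such as REV1 (6.85 and 5.38), a translesion polymerase, and SWSAP1 (7.74 and 5.79), which acts in recombination, both named after their values were seen. RNA decay factors of the exosome and CCR4-NOT families had 3 of 21, with CNOT8 at 4.82 and 4.87, CNOT3 at 4.24 and 4.8 and EXOSC1 at 3.83 and 4.12.

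Apoptosis genes had 6 of 30 (20%), with 1 shared and 1 H4K12la-only. DIABLO (6.85 and 7.68), which frees caspases from their inhibitors, and CASP9 (7.03 and 6.64), the initiator caspase of the mitochondrial route, had the highest folds. CYCS, which codes for cytochrome c, had 3.79 and 4.52, and HTRA2, a mitochondrial protease, had 3.60 and 4.32. The other members were BAD (3.23 and 3.37), which promotes cell death, and BCL2L1 (3.08 and 2.61), which blocks it. The BAD region lies at the 3′ end of that gene, beside the start of GPR137 and the 3′ end of PLCB3. In the p53 target list 3 of 29 were HDAC1-only, among them SESN1 (5.53 and 4.41), whose product restrains mTORC1 signalling under stress, and the kinase gene PLK3 (4.25 and 3.42).

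Signalling genes came from several lists. Of 23 genes of the Wnt pathway and its targets, 5 (21.7%) were HDAC1-only, with 2 shared and 1 H4K12la-only. With a -log10 q of at least 5 in every list, 3 of the 23 were. GSK3B, the kinase that marks beta-catenin for breakdown, had 8.17 and 4.98. TNFRSF19 had 5.51 and 4.90, SP5, a transcription factor induced by Wnt, 3.52 and 4.36, and NKD1, a feedback inhibitor, 3.93 and 3.10. HepG2 is known to carry an activated beta-catenin. In the list of TGF-beta, Notch and Hippo genes 4 of 39 were HDAC1-only, the inhibitory SMAD6 (5.28 and 4.04) and the ID genes, with none shared and 1 H4K12la-only, and 2 were HDAC1-only at that stricter q. Of 25 dual-specificity phosphatase genes, a family in which some members switch off MAP kinases, 3 were HDAC1-only: DUSP10 (3.58 and 4.71), DUSP6 (3.92 and 3.55) and DUSP28 (2.84 and 3.43). The MAPK and PI3K list itself had 2 of 47, DUSP6 and SPRED1, an inhibitor of RAS to RAF signalling, against 1 shared and 4 H4K12la-only.

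**Figure D5:**
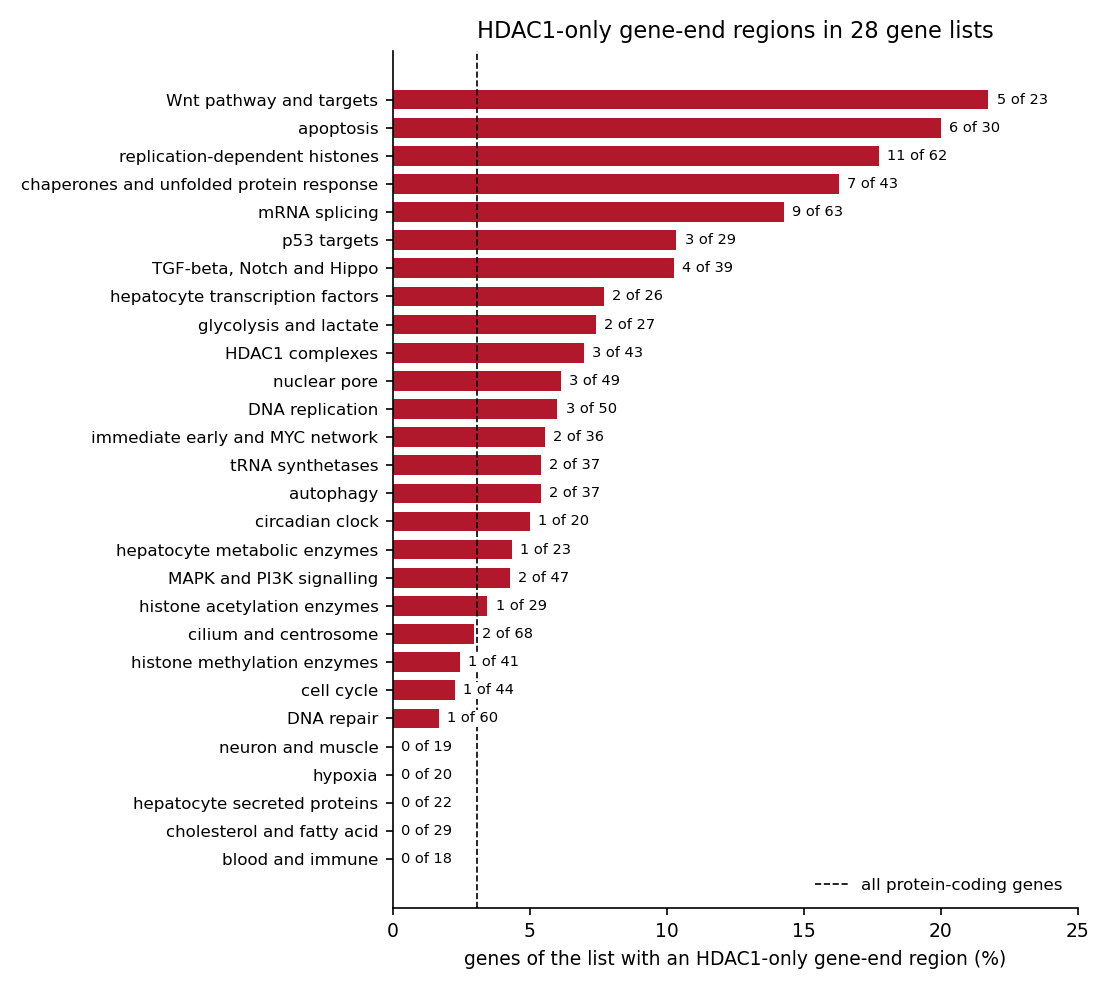
Percent of the genes of each of 28 lists with an HDAC1-only gene-end region (bars, x axis from 0), with the count of genes beside each bar; the dashed line is the 3.08% of all protein-coding genes. The top bar is 5 of 23 Wnt genes, and 5 lists have none.

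Regulators of transcription and chromatin were present in small numbers. HDAC1's own complexes had 3 of 43, GATAD2B (5.91 and 5.97) and MTA2 (3.13 and 4.38) of NuRD and SAP130 (4.19 and 3.74) of SIN3, with 3 shared and 3 H4K12la-only. The MTA2 region lies at the 3′ end of that gene, beside the start of TUT1. KLF and SP factors, which bind the GGGCGG word, had 3 of 30, SP3 (4.44 and 3.74), KLF13 (3.63 and 4.44) and SP5, and none shared or H4K12la-only. The immediate early and MYC list had 2 of 36, JUN at 4.30 and 4.08 and MYC at 4.54 and 3.27. DNA replication had 3 of 50, the histone chaperone gene ASF1B (5.74 and 4.03), MCM3 of the replicative helicase (3.97 and 4.46) and the origin-licensing factor CDC6 (3.09 and 4.92). At the stricter q the MYC and DNA replication lists had 1 gene each.

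The ENO1 gene, which codes for a target of the series, was in the set with HDAC1 folds of 4.51 and 4.90 and no ENO1 or H4K12la peak at its ends, and so was a second glycolytic gene, ALDOA (3.69 and 2.79), giving 2 of 27 in the glycolysis and lactate list, against 1 at the stricter q. The HDAC1 gene itself had no HDAC1 peak at its ends, and its 1 peak was of H4K12la replicate 2, with a fold of 3.08.

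Genes that mark the liver cell were read from 3 lists. Of 26 hepatocyte transcription factor genes, NR0B2, the nuclear receptor that represses bile acid synthesis (4.18 and 3.95), and ATF5 (4.24 and 3.42, in a region that also holds NUP62) were HDAC1-only, a share of 7.69% beside 3.08% of all genes. Of 23 hepatocyte metabolic genes, 1 was (4.35%), HPD of tyrosine breakdown (4.08 and 4.36, in a region that also holds the proteasome gene PSMD9). None of 22 listed genes of secreted hepatocyte proteins was, nor any of 18 blood and immune or 19 neuron and muscle markers. Hypoxia genes (20) and genes of cholesterol and fatty acid synthesis (29) had none either. At the share of all genes, lists of this size would hold under 1 gene, so nothing is read from these zeros. The families of olfactory receptors (389) and keratin-associated proteins (94) had none in any of the 3 classes. A peak says where HDAC1 was called, not whether the gene was expressed.

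The promoters carried CCAAT and GC words more often than those of the other classes. For 483 genes with an HDAC1-only region at their start, the RefSeq promoter table gives the 250 bases before and 50 after the start. It covers 15843 protein-coding genes and 526 of all 611 member genes. Median G and C content was 64.7%, against 63.0% for 515 shared, 63.2% for 790 H4K12la-only and 62.7% for all promoters in the table, and the ratio of observed to expected CpG was 0.860, 0.829, 0.851 and 0.761. CCAAT was in 55.7% of HDAC1-only promoters, 45.8% of shared, 34.7% of H4K12la-only and 36.4% of all. GGGCGG was in 77.4%, 69.5%, 62.5% and 58.3%. The shared class lay between the other classes for both words.

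In all, 14 words were searched on both strands: those of the CCAAT box (CCAAT), the SP/KLF box (GGGCGG), ETS factors (CCGGAAG), NRF1 (GCATGCGC), the CRE (TGACGTCA), the E-box (CACGTG), YY1 (AAGATGGCG), E2F (TTGGCGC), BANP (TCTCGCGA), the TATA box (TATAAA), AP-1 (TGANTCA), HNF4 (CAAAGTCCA), FOXA (TGTTTAC) and TCF/LEF (CTTTGAT). The CCAAT word read from the other strand can overlap the start of the E2F word. A match says that these letters are in the window, and no match says nothing about the factor. The ETS word ran the other way from CCAAT, in 18.2% of HDAC1-only, 21.2% of shared, 27.0% of H4K12la-only and 14.2% of all promoters. The BANP word was in 1.45%, 4.27%, 6.58% and 1.75%, the NRF1 word in 6.0%, 7.38%, 6.33% and 4.28%, and the TATA word in 5.59%, 4.27%, 3.67% and 9.75%. For NRF1 the classes lay close together. The TCF/LEF word was in 2.69%, 0.777%, 1.01% and 1.96%, which is 13 HDAC1-only promoters. The HNF4 word was in 0.207% and the FOXA word in 1.04% of HDAC1-only promoters, against 0.303% and 2.67% of all.

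The higher CCAAT share was seen across base composition and gene density. In 5 equal bins of all promoters by G and C content, from low to high, CCAAT was in 60.0%, 66.7%, 59.7%, 58.6% and 33.0% of HDAC1-only promoters and in 42.5%, 43.1%, 38.4%, 34.2% and 23.8% of all promoters, and in each bin it was also higher than in shared and H4K12la-only promoters. The lowest bin holds 25 HDAC1-only promoters. In 5 bins by gene density, from low to high, it was 67.4%, 50.7%, 50%, 54.2% and 58.2%, against 36.1%, 34.4%, 35.8%, 36.8% and 39.1% of all, so the share was higher than the background in gene-poor and gene-rich surroundings alike. Shared promoters had 43.0%, 45.6%, 44.5%, 53.4% and 46.5%, and H4K12la-only promoters 33.7%, 38.5%, 32.0%, 26.1% and 44.0%. The HDAC1-only share was thus above the shared one in each bin, but hardly so in the fourth. With single libraries, the CCAAT share was 48.6% to 52.8% at starts with HDAC1 and no H4K12la, and 42.2% to 46.4% at starts with both, over the 4 pairs. Of 551 matches in HDAC1-only promoters, 28.7% began at bases -100 to -51 from the start, against 33.5% of 385 in shared promoters and 32.8% of 8671 in all promoters, so the words sat at similar positions. CCAAT and GGGCGG are bound by NF-Y and by SP and KLF factors, whose binding was not measured here.

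The rule left out every region that overlapped an H4K12la peak, and no distance from other sites was taken for comparison. The nearest peak of either H4K12la library lay a median of 56774 bp away (quartiles 22465 and 121221 bp). It was within 1 kb for 26 regions (5.50%, interval 3.78% to 7.93%) and within 10 kb for 51 (10.8%). The closest was 31 bp away at TRIM26, a ubiquitin ligase gene (HDAC1 folds 3.46 and 3.35), and among the 12 strongest regions HDGFL2 had one 40 bp away. Those regions are HDAC1-only by a narrow margin. Of the 611 genes, 45 (7.36%) had an H4K12la peak at a gene end in another region, 7 of them in both libraries. ENO1 peaks were farther still, with 1 region within 10 kb of one. The ENO1 lists were also shorter, with 1592 and 1189 peaks against 5459 and 7568 for H4K12la.

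At the limits of the rule, the region of DUSP6 lay 985 bp from the gene end, just inside, and a region 1037 bp from SEC14L2 and MTFP1 (folds 4.24 and 4.09) just outside. The weakest calls inside were LOC107985729 in replicate 1, with a -log10 q of 2.45 (folds 2.23 and 3.43), and SPRED1 in replicate 2, with a -log10 q of 2.20 (folds 5.06 and 3.63). Outside for want of a second HDAC1 call were FSIP1, at 8.33 in replicate 1 alone, and SPATC1L, at 13.8 in replicate 2 alone, a value above every region in the set. Regions were mostly scattered, and 68 of 450 gaps between neighbouring ones on a chromosome (15.1%) were 100 kb or less.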

How the data were processed

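CUT&Tag peak lists of 6 HepG2 libraries, grouped and numbered by title, were used. The submitters' processing notes name the build hg38 and, without versions or settings, MACS2, Bowtie2, deepTools and FastQC; no source used here says whether peaks were called against a control library. The authors deposited 1 list per library, so peaks were called per sample. Each deposited peak has a fold (a ratio of summit signal over background within its library, not scaled between libraries), a −log10 p and a −log10 q, a summit position and a score that was not used in any result.

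Peaks on 24 chromosomes sharing at least 1 bp were merged, and the highest fold of a library in a region was taken. Gene positions came from the RefSeq table of GRCh38 patch 14, which lacks strand; strand and promoters came from RefSeq's promoter table (15843 protein-coding genes). Gene density was the number of other protein-coding genes within 500 kb. Shares have Wilson 95% intervals. The merging and classification were tested on simulated regions. The genes named are those of the 12 regions with the highest lower fold, the 3 widest regions, 3 regions with most genes, the 2 longest and 2 shortest genes, up to 4 of each list or family with at least 2 members, those at the limits of the rule, and ENO1, HDAC1 and MYC; other genes were named after their values were seen, and a few genes that the rule names are not reported here. The members, lists and comparisons were chosen with earlier results of these data known. Alternatives varied the q minimum, merging distance, peak width, gene-end window, the absence rule and single libraries. Python 3.11.15, pandas 2.3.3, numpy 2.4.6 and scipy 1.17.1 were used.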

Additional observations from a re-analysis of the deposited data

How the results depend on the processing

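Over 16 alternative settings, 101 of 141 values stayed within a tolerance and 40 did not. The tolerance was 1.5 times for counts, 1 SD between replicates for folds and the 95% interval for other medians and shares. Leaving out each library in turn gave 474 to 955 regions, 612 to 1218 genes, a share of HDAC1 gene ends of 37.0% to 57.5%, median folds of 4.32 to 4.86 in replicate 1 and 4.40 to 4.70 in replicate 2, a median width of 528 to 701.5 bp, a median gene length of 18.4 to 22.985 kb, 17 to 22.5 neighbours and 94.3% to 96.3% at gene starts. When ENO1 and H4K12la peaks counted as present only if both libraries had one, the values were 795 regions, 1007 genes, 62.1%, folds of 4.87 and 4.71, 709 bp, 22.7 kb and 17 neighbours. With a −log10 q of at least 5 in every list, the share was 48.7%, the folds 5.18 and 4.96, the width 655 bp and the gene length 20.6 kb. With that minimum in the HDAC1 lists alone there were 343 regions and 456 genes, and the folds were 5.12 and 4.93. With peaks reduced to 200 bp around the summit, the share was 50.2%, the folds 5.04 and 4.74, the width 263 bp, the gene length 21.97 kb, the neighbours 17.5 and the share at gene starts 97.1%. That share was 96.9% with 500 bp around gene ends, and the fold in replicate 2 was 4.65 at gene starts alone. The minimum in every list also drops weaker H4K12la and ENO1 peaks, and 616 genes met the rule with it. It kept 456 of the 611 genes and the 200 bp peaks kept 475. The causes were not tested. Of 17 gene lists with at least 2 members, 7 counts moved by over 1.5 times with the stricter q. Chaperones had 11 against 7, histones 7 against 11, Wnt 3 against 5, TGF-beta, Notch and Hippo 2 against 4, DNA replication 1 against 3, and the immediate early and MYC list and glycolysis 1 against 2 each. Counting regions in place of genes moved 2, histones to 7 and tRNA synthetases to 1. A left-out HDAC1 library has no fold, and the share at gene starts has no value when starts alone are used. No paired analysis was possible because the results come from no test. Peak lists give no depth, so absence of a call is all they show.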
